A study of Mus musculus with 1 sample.

Results

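The 8 genes described here encode surface proteins by which mouse blood stem and progenitor cells are sorted: Procr, Ly6a, Slamf1, Cd48, Cd34, Cd27, Eng and Cd9. They were chosen by gene symbol, and all 8 were found among the 32285 genes of the count matrix. The matrix is 1 single-cell RNA-seq library of lineage-negative, Kit-positive bone marrow cells of the C57BL/6 strain, in which captured transcripts are counted as unique molecular identifiers (UMIs). The cells are Brd9fl/fl, which without Cre leaves Brd9 intact, and all of them come from mice that had received polyinosinic-polycytidylic acid (pIpC), an inducer of interferon, in 3 injections of 20 mg/kg every other day, 8 weeks before the cells were taken. The sample's labels name a CD45.2(+) donor and a CD45.1(+) CD45.2(-) recipient. The series text speaks of primary mice, and the study's single-cell methods name no transplant. Which applies was not settled. The number of mice in the library is not given in the sources used here. The Brd9-deleted cells of the study were not analysed here, so each comparison is between sets of cells within 1 library, without replicates and without a test.

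In flow cytometry, antibodies against the products of these genes split the marrow into fractions. Sca1, the product of Ly6a, marks the stem and multipotent fraction of Kit-positive cells. Within it, CD150 (Slamf1) without CD48 is the classical phenotype of long-term stem cells, and EPCR (Procr) is a further stem cell marker. CD34 is low on long-term stem cells of the adult mouse and separates myeloid from erythroid progenitors, CD27 marks multipotent and lymphoid progenitors, endoglin (Eng) is found on stem cells and early erythroid progenitors, and CD9 on stem cells and megakaryocytes. The study itself sorted long-term stem cells as Sca1+ CD150+ CD48- and split Sca1- progenitors by CD34 and CD16/CD32. Surface protein was not measured in this library, so every value below is RNA.

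All 8 gene identifiers were found in the GENCODE M21 annotation of mouse build GRCm38, each as a protein-coding gene. Cd48 (ENSMUSG00000015355) spans chromosome 1, 171682009 to 171705258, on the plus strand. Slamf1 (ENSMUSG00000015316) follows on the same strand at 171767127 to 171801184, 61.9 kb away with no protein-coding gene between them. Cd34 (ENSMUSG00000016494) is also on chromosome 1, at 194938819 to 194961279 on the plus strand. Eng (ENSMUSG00000026814) lies on chromosome 2 at 32646595 to 32682669 and Procr (ENSMUSG00000027611) at 155751117 to 155755471, both on the plus strand. Cd27 (ENSMUSG00000030336), at 125232622 to 125237010, and Cd9 (ENSMUSG00000030342), at 125460266 to 125494791, are both on the minus strand of chromosome 6, 223.3 kb apart. Ly6a (ENSMUSG00000075602) lies on chromosome 15 at 74994877 to 74998031 on the minus strand, among 11 Ly6 genes of similar sequence on that chromosome. How reads shared between Ly6 genes were treated was not checked, so the level of Ly6a carries that uncertainty. Cd48, Cd34, Cd27, Eng and Cd9 each overlap another annotated gene, Cd34 its antisense gene Gm16897 and Cd48 the gene Gm37010 on its own strand, and reads in the overlaps were not examined.

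To compare the markers across cells without using them to define the cells, gates were drawn on 5 other genes. A cell entered the Hlf gate with at least 1 UMI of Hlf, a transcription factor gene of stem cells, and the Flt3 gate with at least 2 UMIs of Flt3, the receptor gene of lymphoid-primed multipotent progenitors. The Pf4 gate (platelet factor 4), the Klf1 gate (an erythroid transcription factor) and the Elane gate (neutrophil elastase) each required at least 5 UMIs. Cells that passed several gates were left out of all of them. The cell filter of the study kept 7645 of 8817 barcodes, of which 1196 fell in the Hlf gate, 428 in the Flt3 gate, 307 in the Pf4 gate, 903 in the Klf1 gate and 2333 in the Elane gate. A further 1168 cells passed several gates and 1310 passed none. The Hlf gate is narrow in this respect, since 2113 cells had a Hlf UMI and 400 of these also passed the Elane threshold, 283 the Pf4 threshold and 254 the Flt3 threshold. Of 265 cells called as doublets, 155 passed several gates and 21 were in the Hlf gate.

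Depth differed between the gates. The median cell had 9538 UMIs in the Hlf gate, 15912 in the Flt3 gate, 15292 in the Pf4 gate, 21497 in the Elane gate and 34927 in the Klf1 gate. Levels are therefore given as UMIs per 1000000 UMIs of a gate (CPM) with exact Poisson intervals, and shares of cells with a UMI are given after each cell was thinned at random to 5000 UMIs, which left 1169 cells in the Hlf gate and 7546 cells in all. Intervals are at 95%, and they hold counting error only, not the variation between mice or sorts.

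Marker lists, each of which includes the gate's own gene, were read in every gate. In the Hlf gate all 5 stem-like markers were above 10 CPM, with Mecom at 108 CPM, Fgd5 at 19.1 CPM and Hoxb5 at 19.9 CPM. In the Flt3 gate all 5 multipotent markers reached 10 CPM, as did all 6 megakaryocyte markers in the Pf4 gate, all 6 erythroid markers in the Klf1 gate and all 5 neutrophil lineage markers in the Elane gate. The lists were not confined to their gates. All 5 multipotent markers also reached 10 CPM in the Hlf gate. They summed to 1895 CPM in cells that passed no gate, against 1319 CPM in the Flt3 gate. All 5 neutrophil lineage markers reached 10 CPM in the Hlf, Flt3 and Pf4 gates too. They summed to 1390, 2057 and 344 CPM there, against 25791 CPM in the Elane gate. The stem-like markers summed to 643 CPM in the Hlf gate, 89.5 CPM in the Klf1 gate and 83.0 CPM in the Pf4 gate. Since Procr, Eng, Ly6a and Cd34 are also genes of vessel cells, endothelial markers were read in the Hlf gate. Cdh5, the vascular cadherin gene, was at 0 UMIs there, Plvap at 0.818 CPM and Fabp4 at 0.967 CPM, while Kdr stood at 5.13 CPM, Emcn at 13.0 CPM and Pecam1 at 39.2 CPM, and the 6 endothelial genes summed to 59.1 CPM against 8.03 CPM in the Klf1 gate and 100.8 CPM in the Flt3 gate, the lowest and highest of the other gates. What part vessel or granulocyte RNA has in the members' levels was not tested. The 4 stromal genes summed to 0.372 CPM in the Hlf gate.

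Procr and Ly6a, the genes of EPCR and Sca1, had the highest ratios of the Hlf gate to the other gates among the 8 members. Procr stood at 68.1 CPM in the Hlf gate (interval 63.8 to 72.7), at 1.25 CPM in the Flt3 gate, 0.998 CPM in the Pf4 gate, 0.627 CPM in the Elane gate and 0.0960 CPM in the Klf1 gate, where it had 3 UMIs in 903 cells. The Hlf gate lay above all the others, and the Flt3, Pf4 and Elane gates could not be ordered within counting error. Against the other 4 gates pooled, the Procr level was 131 times higher in the Hlf gate (interval 98.5 to 179), a ratio that 0.155% of all 12883 genes compared exceeded. The size of this ratio depended on how the gates were drawn, being 19.4 when a cell could count in several gates and 56.9 when the gates were read from thinned counts. In thinned cells, 29.5% of the Hlf gate had a Procr UMI (interval 26.9 to 32.2), against 0.111% of the Klf1 gate, and without thinning 43.5% against 0.332%. Procr UMIs in the Hlf gate were spread over 520 cells, of which 222 had at least 2.

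Ly6a stood at 78.8 CPM in the Hlf gate (interval 74.2 to 83.7), 7.93 CPM in the Flt3 gate, 3.19 CPM in the Pf4 gate, 2.45 CPM in the Elane gate and 0.160 CPM in the Klf1 gate. The Hlf gate was 9.94 times above the Flt3 gate (interval 7.61 to 13.2), the next in order, and the Pf4 and Elane gates could not be ordered. In thinned cells 31.0% of the Hlf gate had a Ly6a UMI, against 3.74% of the Flt3 gate and 0.111% of the Klf1 gate, and without thinning 43.1%, 8.64% and 0.554%. Among cells that passed several gates, 14.7% had a Ly6a UMI without thinning and 6.16% with it. The 1310 cells that passed no gate had a level of 21.8 CPM, and 10 of these cells held 39.8% of its UMIs there. In the Elane gate 1 cell held 25 of the 125 Ly6a UMIs.

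Slamf1 and Cd48 belong to the same SLAM family of lymphocyte receptors, and their RNA was high in different gates. Slamf1 stood at 33.0 CPM in the Hlf gate (interval 30.0 to 36.2) and at 28.5 CPM in the Pf4 gate (interval 24.0 to 33.6), a ratio of 1.16 whose interval, 0.956 to 1.41, includes 1. In the other gates it was at 0.544 CPM (Klf1), 0.418 CPM (Flt3, 3 UMIs) and 0.314 CPM (Elane), which could not be ordered. The Pf4 gate was 52.4 times above the Klf1 gate (interval 31.6 to 92.5). Thinned, 15.9% of the Hlf gate and 11.5% of the Pf4 gate had a Slamf1 UMI, against 0.129% of the Elane gate and none of 428 cells of the Flt3 gate, which allows a share of up to 0.701%. Without thinning these shares were 24.2%, 33.6%, 0.686% and 0.701%.

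Cd48 was highest in the Flt3 gate, at 246 CPM (interval 235 to 258), followed by the Elane gate at 152 CPM (interval 148 to 155), the Hlf gate at 50.3 CPM (interval 46.6 to 54.2), the Pf4 gate at 10.8 CPM and the Klf1 gate at 6.95 CPM. Each step in this order exceeded counting error. Thinned, 63.3% of the Flt3 gate, 51.9% of the Elane gate, 13.2% of the Hlf gate and 3.43% of the Klf1 gate had a Cd48 UMI. Before thinning the same shares were 90.4%, 92.0%, 21.3% and 17.4%, so that the unthinned shares of the Hlf and Klf1 gates lie close together although their levels are 50.3 and 6.95 CPM, at median depths of 9538 and 34927 UMIs.

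The promoters of 7 members were found in the RefSeq table for build GRCm38.p6, which holds 250 bases before and 50 after each start site. Those of Slamf1 and Cd48 are shown because the genes are neighbours on 1 strand with different patterns, and that of Procr because it follows Slamf1 in the Hlf gate but not in the Pf4 gate. They were chosen after the levels had been seen. Capitals mark matches on either strand to the words searched. AGGAAG is a form of the sites that ETS factors bind. The shorter core GGAA was not searched for and occurs unmarked in each window shown. TGTGGT is a core of the sites that RUNX factors bind. AGATAA is a form of the site that GATA factors bind.
Procr, chr2:155750967-155751266, plus strand: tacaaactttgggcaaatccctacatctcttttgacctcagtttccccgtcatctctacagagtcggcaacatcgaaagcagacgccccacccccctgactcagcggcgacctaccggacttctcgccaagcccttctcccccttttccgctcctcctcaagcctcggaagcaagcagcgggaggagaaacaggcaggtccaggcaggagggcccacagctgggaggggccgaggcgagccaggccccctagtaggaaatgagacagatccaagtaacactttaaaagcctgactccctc
Slamf1, chr1:171766882-171767181, plus strand: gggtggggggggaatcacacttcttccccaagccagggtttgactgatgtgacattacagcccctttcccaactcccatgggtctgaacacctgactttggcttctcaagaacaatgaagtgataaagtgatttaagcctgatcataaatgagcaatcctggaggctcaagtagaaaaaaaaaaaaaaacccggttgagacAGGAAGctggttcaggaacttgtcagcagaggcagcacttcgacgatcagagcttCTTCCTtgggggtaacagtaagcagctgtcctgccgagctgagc
Cd48, chr1:171681742-171682041, plus strand: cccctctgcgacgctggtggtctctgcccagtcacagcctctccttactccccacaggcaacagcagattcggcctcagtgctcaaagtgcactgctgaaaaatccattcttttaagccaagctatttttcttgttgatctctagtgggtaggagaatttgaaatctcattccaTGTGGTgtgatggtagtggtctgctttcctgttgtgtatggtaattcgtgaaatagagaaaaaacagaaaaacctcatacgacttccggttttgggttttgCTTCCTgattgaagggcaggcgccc
The Slamf1 window holds 2 matches of the ETS word, the Cd48 window 1 match of the ETS word and 1 of the RUNX word, and the Procr window none of the 3 words. Among 32851 mouse promoters of this length, 35.4% hold the ETS word, 16.8% the RUNX word and 11.2% the GATA word. The matches describe the letters of these windows, and binding was not measured.

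Cd34 and Cd27 were high in both the Hlf and the Flt3 gate. Cd34, the gene of a sialomucin, stood at 222 CPM in the Flt3 gate (interval 211 to 233), 165 CPM in the Hlf gate (interval 158 to 172), 115 CPM in the Elane gate, 39.3 CPM in the Pf4 gate and 1.86 CPM in the Klf1 gate. Each step exceeded counting error, and the drop from the Pf4 to the Klf1 gate was 21.2-fold (interval 15.7 to 28.9). Cd27, which encodes a receptor of the tumour necrosis factor family, stood at 104 CPM in the Hlf gate (interval 98.4 to 109), 88.2 CPM in the Flt3 gate (interval 81.5 to 95.4), 37.3 CPM in the Pf4 gate, 26.9 CPM in the Elane gate and 1.22 CPM in the Klf1 gate. Each of these steps exceeded counting error too, with a ratio of 1.18 between the Hlf and Flt3 gates (interval 1.07 to 1.29). Thinned, 37.4% of the Hlf gate, 46.7% of the Flt3 gate and 36.6% of the Elane gate had a Cd34 UMI, against 1.11% of the Klf1 gate. For Cd27 the shares were 36.8%, 31.3%, 10.3% and 0.886%. Without thinning, 51.6% of the Hlf gate and 5.20% of the Klf1 gate had a Cd34 UMI, and 58.9% and 3.99% a Cd27 UMI.

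Eng and Cd9 were shared between the Hlf gate and the platelet or red cell gates. Eng, a co-receptor of the TGF-beta family, stood at 72.8 CPM in the Hlf gate (interval 68.3 to 77.5), 55.5 CPM in the Klf1 gate (interval 52.9 to 58.2), 53.5 CPM in the Pf4 gate (interval 47.3 to 60.3), 18.8 CPM in the Flt3 gate and 11.4 CPM in the Elane gate. Eng was the only member above 10 CPM in the Klf1 gate, and the Klf1 and Pf4 gates could not be ordered (ratio 1.04, interval 0.913 to 1.19). Thinned, 33.3% of the Hlf gate, 24.6% of the Klf1 gate, 23.9% of the Pf4 gate and 5.28% of the Elane gate had an Eng UMI. Without thinning the Klf1 gate, the deepest, had the highest share at 81.0%, against 52.8% of the Hlf gate. Cd9, a tetraspanin gene, stood at 690 CPM in the Pf4 gate (interval 667 to 713), 150 CPM in the Hlf gate (interval 143 to 156), 39.5 CPM in the Flt3 gate, 36.0 CPM in the Elane gate and 4.90 CPM in the Klf1 gate. The Pf4 gate was 4.61 times above the Hlf gate (interval 4.36 to 4.87), and the Flt3 and Elane gates could not be ordered (ratio 1.099, interval 0.966 to 1.25). Thinned, 88.2% of the Pf4 gate and 49.4% of the Hlf gate had a Cd9 UMI, against 2.99% of the Klf1 gate. Without thinning these shares were 98.7%, 72.8% and 12.3%.

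**Figure D1:**
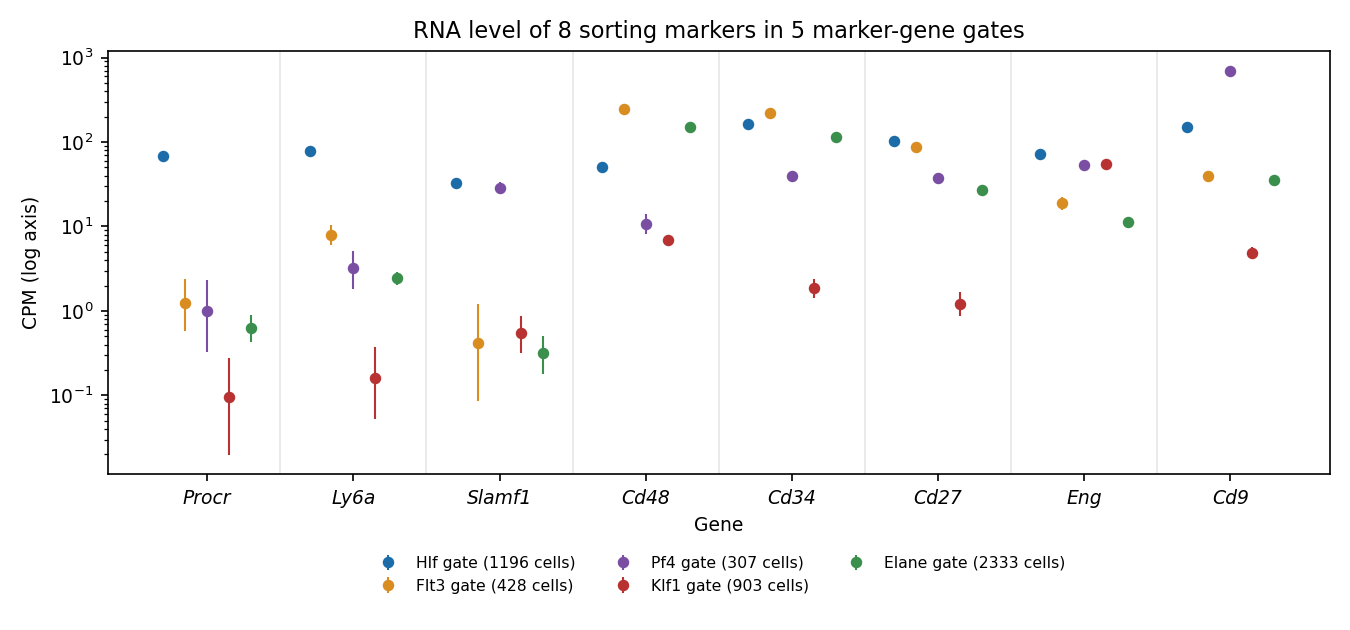
RNA level of each marker gene in counts per 1000000 UMIs (CPM, log axis) in 5 gates drawn on other genes; points are summed UMIs of a gate and bars exact 95% Poisson intervals. Procr and Ly6a are high in the Hlf gate alone, Slamf1 in the Hlf and Pf4 gates, Cd48 in the Flt3 and Elane gates, and Eng alone stays above 10 CPM in the Klf1 gate.

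When each gate was set against the other 4 pooled, 7 of the 8 members were at least 2-fold higher in the Hlf gate, where 26.4% of all genes compared were (12883 genes with at least 50 UMIs). The exception, Cd48, was at least 2-fold lower, as were 7.16% of all genes, with a ratio of 0.485 (interval 0.448 to 0.525) that lies close to the limit. The count of 7 was 6 with lower or higher gate thresholds and 5 with overlap allowed, with gates from thinned counts or with equal weights, and the Cd48 call was lost in 4 alternatives. The members' median ratio in the Hlf gate was 3.46, against 1.27 over all genes. Cd34 passed the 2-fold limit at 2.02 and lost the call with lower thresholds (1.575), overlap (1.69), thinned gates (1.571) and equal weights (1.746). Eng passed at 2.53 and stood at 1.715 with overlap. Cd9 passed at 2.47 and stood at 1.784 with higher thresholds and 1.634 with thinned gates, but with the other gates weighted equally, so that the small Pf4 gate counts as much as the Elane gate, its ratio was 0.777 and the direction turned. In the Flt3 gate Cd48, Cd34 and Cd27 were higher (9.47% of all genes), with ratios between 2.69 and 2.97, and Procr and Slamf1 were lower (11.4%). Weighting the gates equally raised the lower count in the Flt3 gate from 2 to 5.

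In the Pf4 gate Slamf1 and Cd9 were higher (13.0% of all genes), with ratios of 6.12 and 16.6, and Procr, Ly6a, Cd48 and Cd34 were lower (11.4%). In the Klf1 gate only Eng was higher (9.74%), at 2.17, and the other 7 members were lower (31.4%). Its call was lost when cells could count in several gates and when the gates were weighted equally. In the Elane gate Cd48 was higher (7.15%), at 3.18, a call lost under equal weights, and Procr, Ly6a, Slamf1, Eng and Cd9 were lower (21.9%). The members' median ratio was 0.598 in the Flt3 gate, 0.766 in the Pf4 gate, 0.0377 in the Klf1 gate and 0.277 in the Elane gate, against 1.001, 1.11, 0.876 and 0.776 over all genes.

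Other surface genes used in sorting were read for comparison, as a list of 20. Of these, 9 were at least 2-fold higher in the Hlf gate (26.4% of all genes), among them Kit, Tek, Esam, Cd38, Itga2b, Cd244a, Thy1 and Itgb3. Another 4 were lower there (7.16% of all genes), among them Fcgr3, the gene of CD16. In the Klf1 gate 3 were higher (9.74% of all genes), namely Cd24a, Tfrc and Cd82, and 16 were lower (31.4%). In the Pf4 gate 6 were higher (13.0% of all genes) and 11 lower (11.4%). In the Flt3 gate 8 were higher (9.47%) and 6 lower (11.4%), and in the Elane gate 5 higher (7.15%) and 13 lower (21.9%). Esam, an adhesion molecule of stem cells and platelets, had the split of Slamf1, at 66.4 CPM in the Hlf gate, 58.3 CPM in the Pf4 gate and 0.13 to 0.53 CPM in the other gates. The Ly6 paralogues did not share the pattern of Ly6a. Ly6e was at 277 CPM or more in every gate, Ly6c2 was highest in the Elane gate at 1136 CPM against 15.8 CPM in the Hlf gate, Ly6d was highest in the Flt3 gate at 183 CPM, and Ly6c1 was at or below 0.51 CPM in all 5 gates.

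Further sets of cells, which overlap the gates, extended the picture. Dntt cells (at least 2 UMIs of the lymphoid enzyme gene Dntt) had the highest levels of Cd34 and Cd27 in any set, 324 CPM (interval 308 to 341) and 140 CPM (interval 130 to 152), and 137 of these 275 cells were also in the Flt3 gate. Ly6a stood at 21.4 CPM in Dntt cells (interval 17.4 to 26.0), above the 7.93 CPM of the Flt3 gate. In thinned cells 13.2% of Dntt cells had a Ly6a UMI, and before thinning the median depth of Dntt cells was 15755 UMIs. Cd48 was at 296 CPM in the 76 cells with Siglech, a gene of plasmacytoid dendritic cells, and at 200 CPM in cells with Csf1r, the macrophage growth factor receptor. Ly6a in the Siglech cells, at 22.0 CPM, rested on 28 UMIs, of which 1 cell held 15. Cd9 had its second high level in cells with Ms4a2, a gene of basophils and mast cells, at 230 CPM (interval 218 to 242), where 63.0% of thinned cells had a UMI. Eng was at 52.6 CPM in cells with Car1, an erythroid gene, and 892 of those 1456 cells were in the Klf1 gate.

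**Figure D2:**
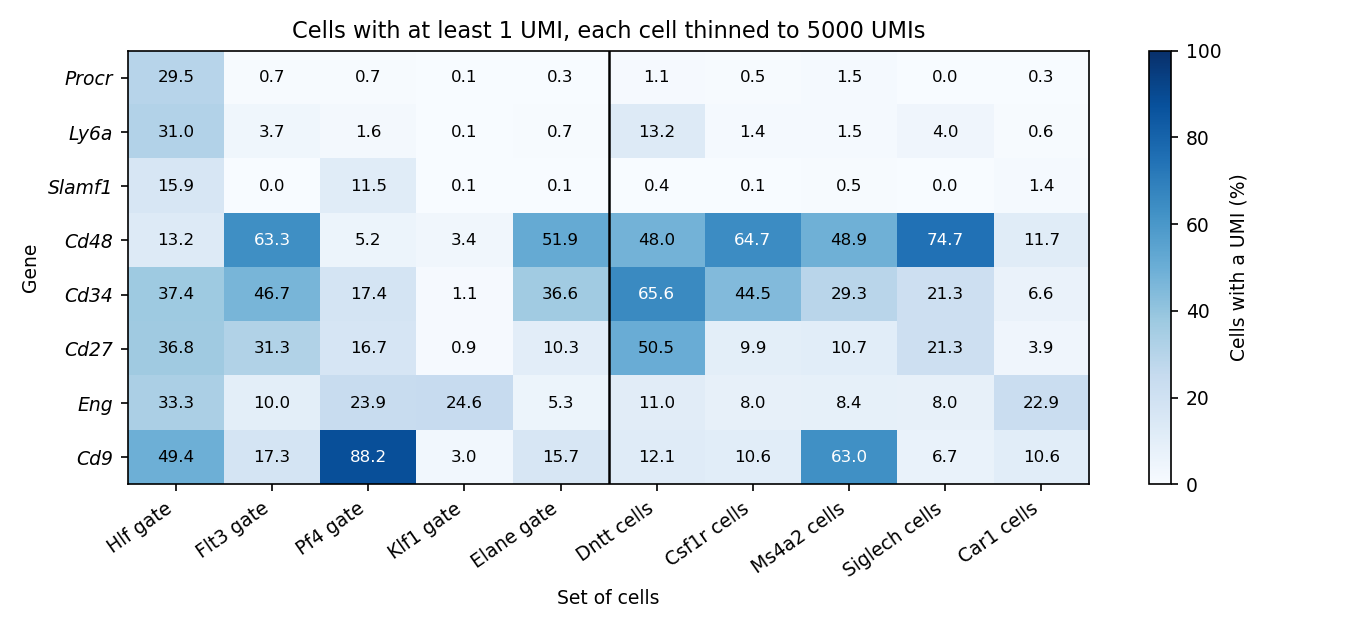
Share of cells (%) with at least 1 UMI of each marker gene after thinning to 5000 UMIs, for the 5 gates (left of the line) and 5 further sets that overlap them (right). Cd9 reaches 88.2% in the Pf4 gate and 63.0% in Ms4a2 cells, while Procr is at 29.5% in the Hlf gate and at 1.49% or less in each of the other 9 sets plotted.

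Whether markers were found in the same cells was asked within the Hlf gate, since mixing of lineages can by itself move such values. The Hlf gate is not free of mixture, with neutrophil lineage markers at 1390 CPM. What part mixture has in either set was not tested. For each pair the cells with both UMIs were divided by the number that the product of the 2 shares gives, a ratio that is 1 when detection of one gene tells nothing of the other. Over the 28 pairs the median ratio was 1.003 in the Hlf gate (lowest 0.204, highest 1.88), and 1.27 over all 7546 cells (lowest 0.195, highest 6.58). Counts per pair are small, so a repeat with other random draws (seed 2) is given beside some of them. The pair ratios printed without it rest on 1 set of draws.

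Cd48 was rarely found with the stem cell markers. Slamf1 and Cd48 UMIs met in 5 Hlf-gate cells against 24.5 by the product (ratio 0.204, seed 2 0.355), Procr and Cd48 in 10 against 45.4 (ratio 0.220, seed 2 0.330) and Ly6a and Cd48 in 12 against 47.7 (ratio 0.252, seed 2 0.292). Of the cells with Slamf1, 2.69% had Cd48, and of those without, 15.2%. Cd34 went with Cd48, in 108 cells against 57.6 (ratio 1.88, seed 2 1.89), and was present in 70.1% of Cd48 cells and 32.4% of the others. Cd34 was also low beside Slamf1, in 32 cells against 69.5 (ratio 0.460), with ratios of 0.675 beside Procr and 0.746 beside Ly6a.

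The 3 stem cell markers were found together above the product. Procr and Ly6a met in 169 cells against 107 (ratio 1.58, seed 2 1.53), Procr and Slamf1 in 86 against 54.9 (ratio 1.57, seed 2 1.46) and Ly6a and Slamf1 in 76 against 57.6 (ratio 1.32, seed 2 1.37). Cd27 and Cd34 had a ratio of 1.23. The pairs of Eng, Cd9 and Cd27 with Procr and Ly6a lay between 0.985 and 1.19. Among Hlf-gate cells 19.8% had at least 4 of the 8 members at this depth and 4.79% had none, whereas 68.5% of Klf1-gate cells had none.

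**Figure D3:**
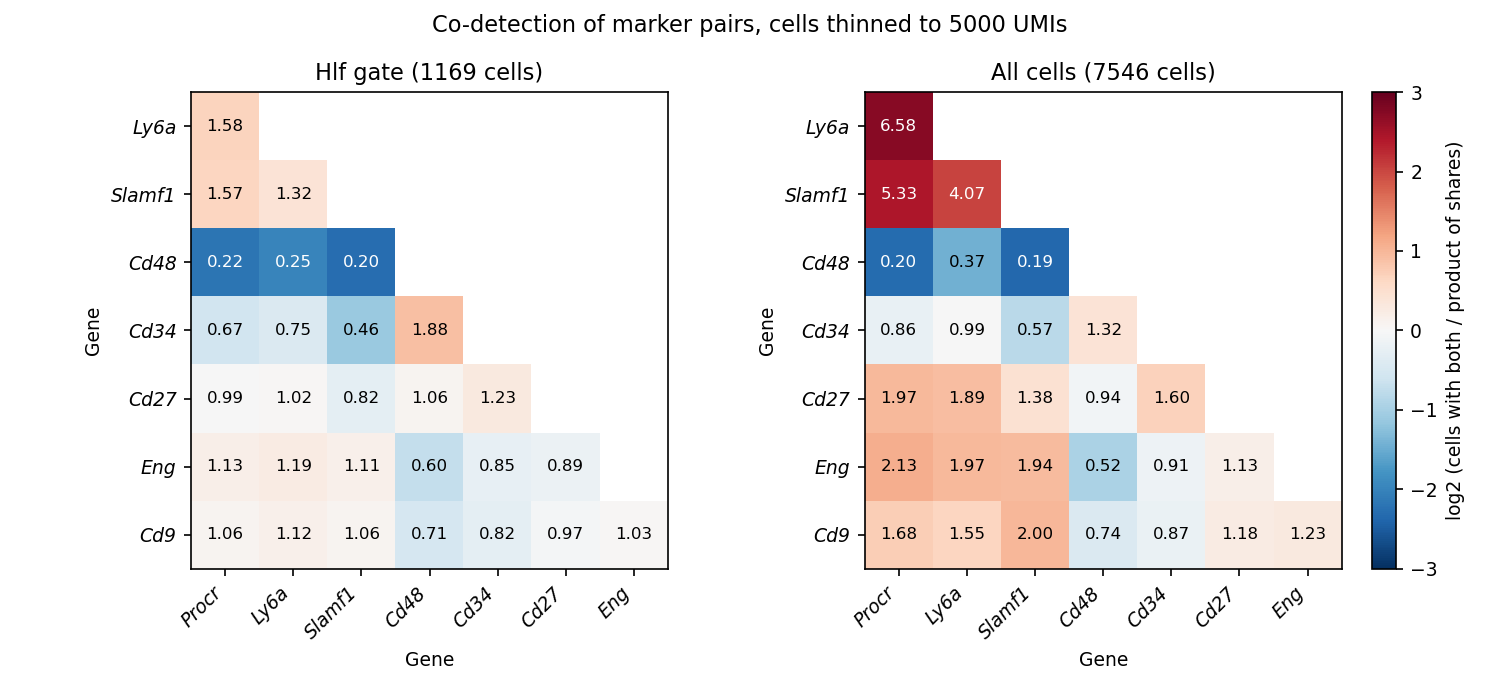
Cells with UMIs of both genes divided by the number from the product of their shares, for each pair of markers, in the Hlf gate (left) and in all cells (right), thinned to 5000 UMIs; colour is the log2 of the printed ratio. In the Hlf gate Cd48 is below 1 with Procr, Ly6a and Slamf1 (0.22, 0.25 and 0.20) and above 1 with Cd34 (1.88), and over all cells Procr with Ly6a reaches 6.58.

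The marker combinations that cytometry uses were then read in RNA, and the cells that held them were looked up in the gates. Of 7546 thinned cells, 91 (1.21%) had Ly6a and Slamf1 without Cd48, the RNA counterpart of the Sca1+ CD150+ CD48- gate, and 83.5% of these were in the Hlf gate (interval 74.3 to 90.5), against 15.5% of all thinned cells. Over the alternatives this share ranged from 74.73% with higher gate thresholds to 91.14% with seed 2. None of the 91 were in the Flt3, Klf1 or Elane gates, which allows a share of up to 3.30% each. A cell with a Hlf UMI could not enter those gates. Of the 91 cells 90.1% had a Hlf UMI, against 27.6% of all thinned cells, so these absences were largely set by the gating. With Cd48 in addition, only 2 cells were found. The combination covered only 6.501% of the Hlf gate, and at this depth 31.0% of the gate had a Ly6a UMI and 15.9% a Slamf1 UMI.

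Procr was read in the place of Ly6a. Of 94 cells with Procr and Slamf1 without Cd48, 89.4% were in the Hlf gate (interval 81.3 to 94.8), as were 85.8% of 197 cells with Procr and Ly6a (interval 80.1 to 90.3). Of 338 cells with Ly6a and no Procr, 57.1% were in the Hlf gate (interval 51.6 to 62.4), and of 225 cells with Procr and no Ly6a, 78.2% (interval 72.3 to 83.4), so that the 2 intervals do not overlap. Slamf1 without Ly6a and Cd48 marked 209 cells, of which 50.2% were in the Hlf gate and 15.3% in the Pf4 gate (interval 10.7 to 20.9), and in these cells Pf4 stood at 1570 CPM and Itga2b at 248 CPM. Ly6a with Cd48 and without Slamf1 marked 67 cells, 17.9% in the Hlf gate (interval 9.61 to 29.2). A further 35.8% of them passed several gates, and 50.7% had a Hlf UMI. Mpo stood at 1403 CPM in these 67 cells and Dntt at 331 CPM, against 2263 and 44.3 CPM in all thinned cells. Ly6a without either marked 375 cells, of which 73.1% were in the Hlf gate.

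Among cells without a Ly6a UMI, Cd34 and Fcgr3 gave a partial counterpart of the myeloid progenitor gates. Fcgr2b, the gene of CD32, was not used for it. It stood at 39.4 CPM in the Elane gate and 21.6 CPM in the Flt3 gate, where Fcgr3 stood at 124 and 3.06 CPM. Of all thinned cells 30.9% were in the Elane gate, 15.5% in the Hlf gate, 12.0% in the Klf1 gate and 5.67% in the Flt3 gate. Of 475 cells with both, 68.2% were in the Elane gate, and none of the 475 were in the Klf1 gate, which allows a share of up to 0.632%. Of 979 cells with Fcgr3 and no Cd34, 70.5% were in the Elane gate, and the intervals of both shares overlap (63.8 to 72.4 and 67.5 to 73.3). Of 1780 cells with Cd34 alone, 29.4% were in the Elane gate, 18.4% in the Hlf gate and 10.6% in the Flt3 gate, of which the Elane share has an interval (27.3 to 31.6) that includes that of all cells. The 3777 cells with none of the 3 genes held 98.7% of the Klf1 gate, but Klf1-gate cells were only 23.6% of them. An absent UMI at this depth is not an absent transcript.

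**Figure D4:**
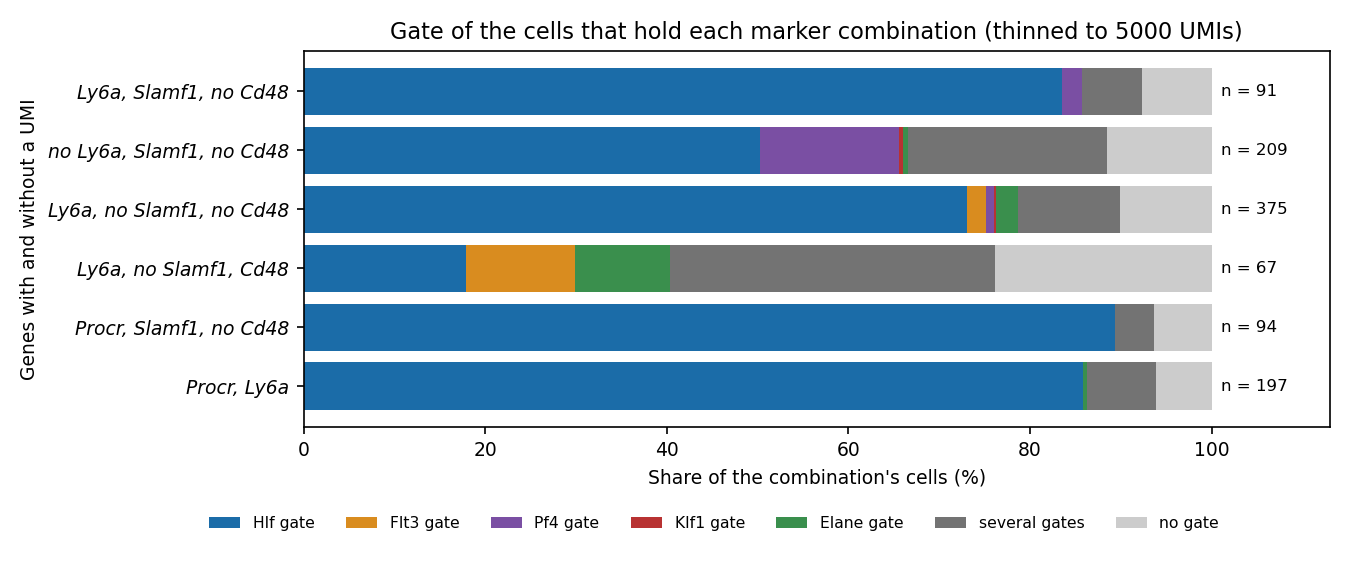
Share of the cells with each marker combination (%) that fall in each gate, thinned to 5000 UMIs; n is the number of cells with the combination. Cells with Procr and Slamf1 and no Cd48 are 89.4% Hlf-gate cells, while those with Ly6a and Cd48 and no Slamf1 are 17.9%, with another 35.8% in several gates; by any Hlf UMI the shares are 93.6% and 50.7%.

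Lastly, the Hlf gate was split by detection of each marker, and 15 other genes were read on both sides of the split. Cells with Procr had more RNA of stem cell genes than cells without, 1.98 times for the transcription factor gene Mecom (interval 1.72 to 2.29) and 2.13 times for Mllt3 (interval 1.87 to 2.43). Vwf, the von Willebrand factor gene of platelet-biased stem cells, was 1.79 times higher (interval 1.45 to 2.21). Genes of dividing cells were lower beside Procr, with ratios of 0.206 for Mki67 (interval 0.158 to 0.264), 0.226 for Top2a and 0.433 for the kinase gene Cdk6 (interval 0.387 to 0.484). Mpo, a neutrophil granule gene, had a ratio of 0.188 (seed 2 0.321). Hlf itself was 1.63 times higher in the Procr cells. Cells with Ly6a had the same directions for these genes, with ratios of 1.56 for Mecom, 1.80 for Mllt3, 0.204 for Mki67 and 0.272 for Mpo. So did cells with Slamf1, with 1.56, 1.89, 0.419 and 0.219. Hoxa9 was at 1.31 beside Procr (seed 2 1.13). Beside Ly6a it was at 1.03 (interval 0.838 to 1.26) and beside Slamf1 at 1.16 (interval 0.895 to 1.47). Fgd5 was at 2.11 beside Procr, 2.03 beside Ly6a and 1.39 beside Slamf1 (interval 0.871 to 2.13). Meis1 was at 1.29, 1.24 and 1.26.

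Detection of Cd48 gave the opposite split. Beside Cd48, Mecom had a ratio of 0.212 (interval 0.135 to 0.318), Mllt3 of 0.183 (interval 0.118 to 0.272) and Vwf of 0.165 (9 UMIs, seed 2 0.0719), while Mki67 was 2.10 times higher (interval 1.79 to 2.46), Mpo 5.63 times (interval 5.07 to 6.24), the myeloid factor gene Cebpa 5.54 times (interval 3.58 to 8.51) and Dntt 6.45 times (interval 4.201 to 9.90). Hlf was at a ratio of 0.459. Cd34 cells shared part of this, with Vwf at 0.306, Mllt3 at 0.492, Mpo at 3.62 and Dntt at 6.98 (interval 4.13 to 12.4), but Mki67 at 1.04 (interval 0.902 to 1.19, seed 2 1.40). Beside Cd27 the Mecom ratio was 0.780 and beside Eng 1.34, while beside Cd9 it was 1.17 with 1 set of random draws and 0.978 with the other, so that its direction was not settled.

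Depth before thinning moved with these splits. The Cd48 cells of the Hlf gate had a median of 14925 UMIs against 9200 in those without, the Cd34 cells 11272 against 9166, the Procr cells 8108 against 10934 and the Ly6a cells 8497 against 10754. The gate was read from unthinned counts, so a deep cell entered it with less Hlf per UMI. The part of depth in the ratios was not tested.

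**Figure D5:**
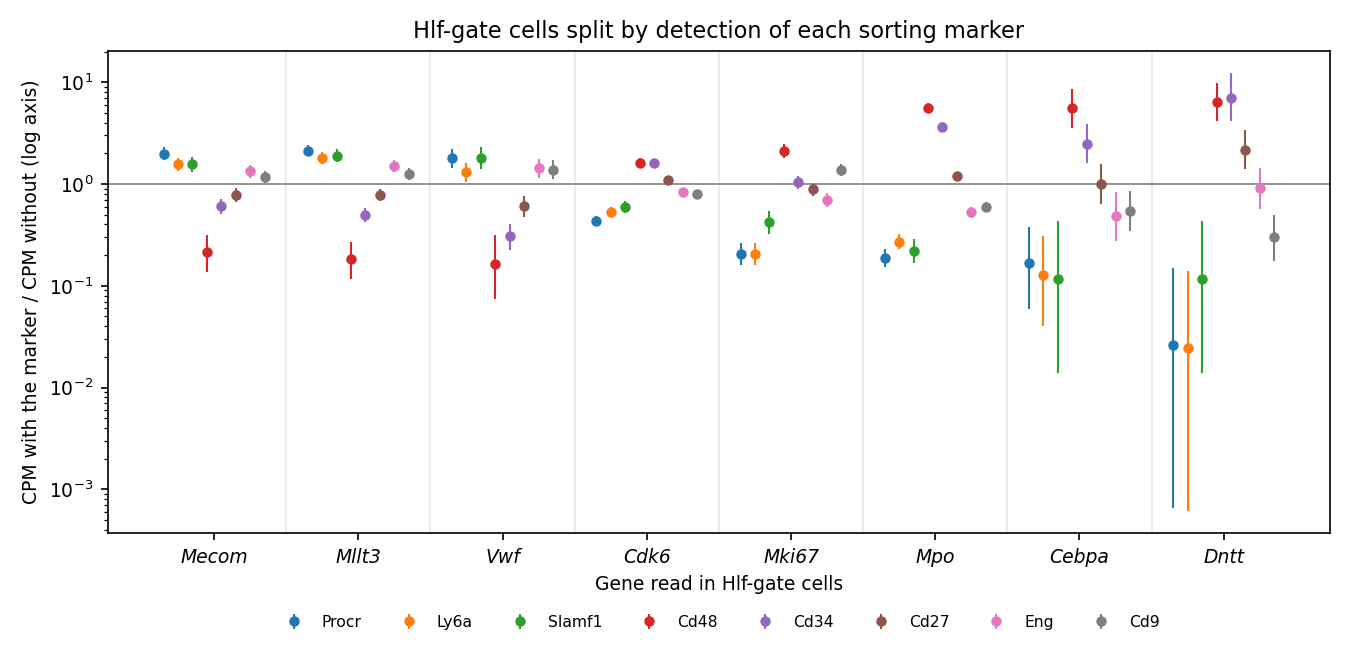
Level of 8 genes in Hlf-gate cells with a UMI of each marker divided by the level in those without (log axis), thinned to 5000 UMIs; bars are exact 95% intervals for counting error and the line marks 1. Procr, Ly6a and Slamf1 lie above 1 for Mecom, Mllt3 and Vwf and below 1 for Mki67 and Mpo, and Cd48 lies on the other side of 1 for each of these 5 genes. The 8 genes plotted were picked from 15 after their values were seen.

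Across the 5 gates and 5 further sets, other genes were ranked by the Pearson correlation of log2(CPM + 10) with each member, among 4514 genes with at least 50 CPM in some set. These 10 points share cells and 1 library, so the values are a description. Esam was nearest to Slamf1 (r = 0.997), Nkx2-3, a homeobox gene, to Procr (0.965) and Dusp2 to Cd27 (0.994). For Cd9 the list held Cryzl1 (0.978) and Itga2b (0.967), the gene of the platelet integrin CD41. Ly6a had no gene above 0.907 (Gm19590). The ribosomal protein gene Rps28 was nearest to Cd34 (0.985) and Cdc73 to Eng (0.973). Among the members themselves, Cd34 and Cd27 had the highest r, 0.908, followed by Procr and Ly6a at 0.833, and the lowest was that of Cd48 and Eng at -0.864.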

How the data were processed

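The authors made the count matrix with Cell Ranger 6.0.2, per the file headers and the study's methods, from a 10x Chromium 3' library aligned to mouse mm10, and deposited whole-number UMI counts per gene and barcode without normalization. The sample's labels describe a bulk protocol instead, whereas the matrix holds single barcodes. The library held 167452386 UMIs in 8817 barcodes. As in the study, barcodes were kept (7645) when UMIs lay between 1000 and 50000, detected genes between 1000 and 6500, and mitochondrial UMIs below 7%. Scrublet (scanpy 1.11.5, expected rate 6%) called 265 doublets, which were kept.

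UMIs were summed per gate and divided by the gate's total. Exact Poisson, conditional binomial (ratios) and Clopper-Pearson (shares) intervals at 95% were computed in Python 3.11.15 with scipy 1.17.1. UMIs without independent libraries are not replicates, so these cover counting error only and no test was run. A 2-fold ratio was the limit for a gene to be counted, among genes with at least 50 UMIs. A count of 0 was given an upper limit of 3 counts. Cells were thinned to 5000 UMIs (seed 1), and 99 shallower cells were left out. Pairs needed a product of at least 5 cells. Scripts were tested on simulated data.

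The members, gates and gene lists were chosen with earlier results of these data known. All members are named. Other named genes come from lists of surface genes, markers and readouts written with the design, and from the 3 genes most like each member, of which some are not reported here. Promoters, sequence words, plotted readouts, the second seed for pairs and splits, and the factor of 1.1 within which a median ratio counts as unmoved were chosen after values had been seen. Gate thresholds, gate overlap, gate weights, cell filters, doublets, gene classes and thinning were varied.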

Additional observations from a re-analysis of the deposited data

Results flagged for a closer look

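The 1172 barcodes that the cell filter removed, with a median of 2951.5 UMIs, were used in no comparison, and each of the 8 members had UMIs there above the 0.192 CPM that a count of 0 allows. Procr stood at 2.56 CPM, Ly6a at 5.64 CPM and Slamf1 at 4.49 CPM in them, against 7.76, 12.7 and 6.19 CPM in the cells kept. Cd48 stood at 38.9 CPM, Cd34 at 46.5 CPM and Cd27 at 18.1 CPM, against 105.4, 105.5 and 39.4 CPM. Cd9 stood at 59.9 CPM, against 91.4 CPM. Eng, at 51.2 CPM against 34.2 CPM, was the one member with a higher level in the removed barcodes than in the cells kept.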

How the results depend on the processing

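The 7 members higher in the Hlf gate became 6 with lower or higher thresholds and 5 with overlap allowed, gates from thinned counts or equal weight. Counts of members past 2-fold differed from the main value by over 1.5 times in 8 of 90 alternatives. The 1 member lower in the Hlf gate, Cd48, became 0 with higher gate thresholds, with overlap allowed, with all deposited barcodes and with the stricter cell filter. The 1 member higher in the Klf1 gate became 0 with overlap allowed and with equal weight, the 1 higher in the Elane gate became 0 with equal weight, and the 2 lower in the Flt3 gate became 5 with equal weight. The ratio of Cd9 in the Hlf gate turned to 0.777 under equal weight. Over the alternatives the Hlf-gate ratio ranged from 19.4 to 135 for Procr, 9.77 to 39.0 for Ly6a, 4.43 to 18.4 for Slamf1 and 0.298 to 0.741 for Cd48. With overlap allowed, Procr was at 19.4 and Ly6a at 9.77. The median co-detection ratio in the Hlf gate ranged from 0.972 to 1.07 and so lay on both sides of 1, and in all cells it was 1.15 unthinned. The share of Ly6a and Slamf1 cells without Cd48 that were in the Hlf gate was 83.52% in the main setting, 74.73% with higher and 75.82% with lower thresholds, 76.92% with the stricter filter, 79.14% unthinned, 90.62% at 2500 UMIs and 91.14% with seed 2. The cause of these moves was not tested. With 1 library, variation between mice was not measured, and some levels rest on few UMIs, as those of Slamf1 in the Flt3, Klf1 and Elane gates on 3 to 17. No paired analysis was possible because there is 1 sample.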
